A study of Homo sapiens with 4 samples.

Results

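The genes described here are 10 members of the stress program built around the transcription factor ATF4: ATF4 itself, the related factors ATF3, ATF5, DDIT3 and CEBPG, and the effectors DDIT4, CHAC1, SESN2, STC2 and VLDLR. They were found by their symbols in GENCODE 29 among the 28274 genes of the deposited table, all 10 were present, and all 10 passed the filter on low values, a mean of at least 1 FPKM over the 4 libraries (fragments per kilobase of exon, scaled by a library total set by the authors). RNA sequencing covered 4 libraries of the human cell line labelled J-gammal, 2 control libraries with genotype "none" and 2 libraries of the FYB1 knockdown, which are numbered 1 and 2 within each group by their titles. FYB1 is an adaptor protein of T cells. The control titles carry the letters NC while their source name says they had no treatment, so it is not known here whether they hold a control construct, or whether 1 construct was used for both knockdown libraries. The labels do not name separate cultures within a group, and the p-values given here cover the spread between the libraries alone, which can be technical.

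ATF4 is the central factor of the integrated stress response. Kinases that sense amino acid shortage, unfolded protein in the endoplasmic reticulum, heme shortage or double-stranded RNA phosphorylate the initiation factor eIF2, which lowers most protein synthesis while the ATF4 message, through short upstream reading frames, is translated more. ATF4 protein pairs with other basic leucine zipper proteins and switches on genes for amino acid supply, redox balance, feedback and, under lasting stress, cell death. The messages of ATF5, DDIT3 and CHAC1 also carry upstream reading frames that govern their translation, so the RNA levels given here are not measures of protein.

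The question was how these 10 genes differed between control and knockdown cells. In the knockdown libraries 7 of the 10 had lower means, as did 54.3% of all genes tested, and 3 had higher ones. The main test, limma-trend, called 0 of them (5 at an unadjusted p under 0.05, as were 23.4% of all genes). The calls named next come from an alternative test on read counts, which called 7.74% of all genes tested. With 1 library left out, the members it called changed, and so did its share of all genes. DDIT4 and VLDLR, both effectors, were called lower by limma-voom on recovered reads. Their mean FPKM fell to 0.629 and 0.653 of the control means. CHAC1, at 0.646 of its control mean FPKM, narrowly missed the threshold of that test. ATF4 itself was lower in both knockdown libraries without passing it. Its partner CEBPG was higher in both, and DDIT3 overlapped between the groups.

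The libraries held 16693113 to 20251864 reads, recovered from the table as described with the processing. Mitochondrial genes took 4.09% and 4.03% of the reads in controls against 4.92% and 5.14% in knockdown libraries. Across the genes tested, exon length and log2 fold change had a Spearman correlation of 0.22, given as a description since genes of 1 library share its depth and RNA quality. All 12 T cell markers examined stood at a mean of at least 1 FPKM and summed to 2999 to 3304 FPKM in controls and 1888 to 2338 FPKM in knockdown libraries. Both knockdown libraries were below both controls in 7 of the 12, against 34.6% of all genes tested. They were above both in 4 (TRAC, TCF7, CD3G and LEF1), against 26% of all genes tested. TRBC1 held the most FPKM of the sum, at 1404 and 1237 FPKM in controls against 469 and 647 FPKM in knockdown libraries. Of 5 B cell markers 1 reached 1 FPKM, CD79A, and their sum was 21.9 to 25.5 FPKM in controls and 11.7 to 16.3 FPKM in knockdown libraries, while MS4A1 had at most 2 reads in any library. The part of these shifts in the results below was not tested. None of the myeloid, NK cell, erythroid, epithelial or fibroblast markers reached 1 FPKM. FYB1, the targeted gene, measured 17.6 and 20.1 FPKM in the control pair, against 6.18 and 4.53 FPKM after knockdown, a log2 fold change of -1.65 ± 0.15 (SE; limma-trend adjusted p = 0.0398). That call ended without knockdown library 1 (adjusted p = 0.203 by limma-trend) and without knockdown library 2 (adjusted p = 0.0555). In bulk RNA, fewer cells that express a gene and less RNA per cell cannot be told apart.

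**Figure D1:**
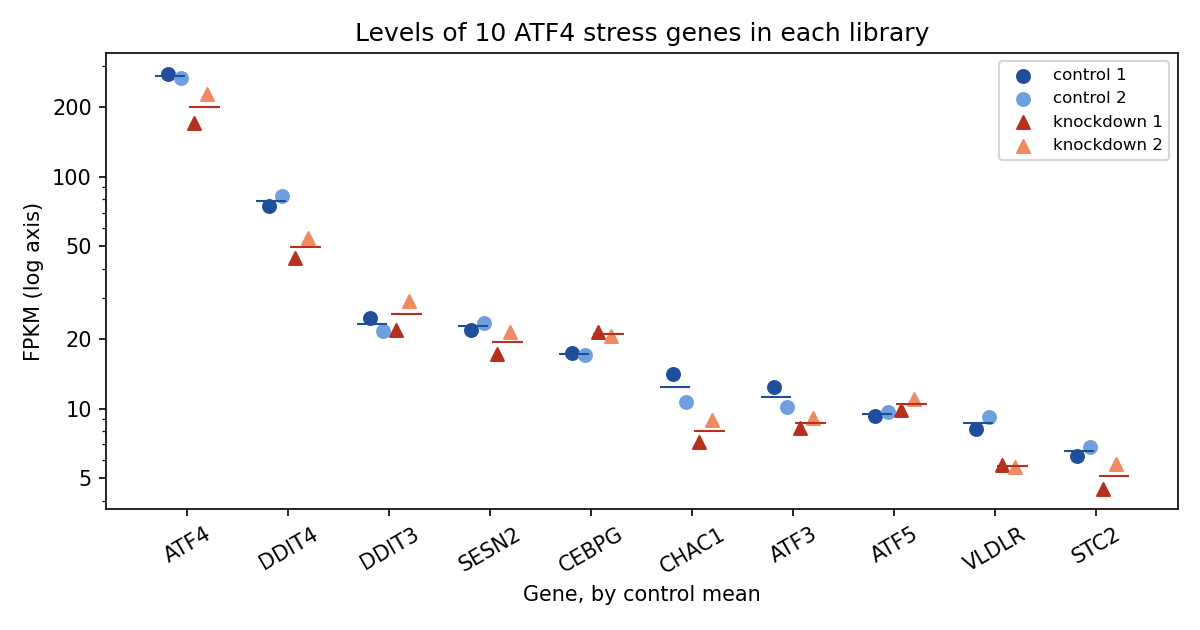
FPKM (log axis) of each gene in each library, ordered by control mean. Circles are controls, triangles are knockdown libraries and lines are group means of 2 libraries. ATF4 lies above all others at 171 to 278 FPKM, and DDIT3 is the gene whose groups overlap.

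The main test, limma-trend on log2(FPKM + 1) over 13172 genes that averaged 1 FPKM or more, called 0 of the 10 members at an adjusted p under 0.05. It called 0.205% of all genes tested. At an unadjusted p under 0.05 it had 5 members, 4 lower and 1 higher, where the background was 14.9% of genes lower and 8.51% higher. Limma-voom on recovered reads called 2 members, both lower, against a background of 7.74% of genes called, 5.8% lower and 1.94% higher. In 7 members both knockdown libraries lay below both controls and in 2 both lay above, against 34.6% and 26% of all genes tested. Lower mean log2 values in the knockdown libraries were found for 7 of 10 members and for 54.3% of all genes tested. The members' median log2 fold change was -0.32, and that of all genes tested was -0.03. Under quantile normalization the members' median was -0.18 and that of all genes 0.01, and with summed reads as the library total they were -0.20 and 0.08. Fold changes are knockdown minus control.

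ATF4 (chromosome 22, 39519695 to 39522685, plus strand, hg38) was the most abundant member. Controls 1 and 2 had 278 and 265 FPKM of ATF4, and knockdown libraries 1 and 2 had 171 and 228 FPKM, from 7930 to 11714 reads a library. Both knockdown libraries were below both controls, and they differed from each other by more than the controls did (0.41 against 0.07 on the log2 scale). The log2 fold change was -0.46 ± 0.19 (limma-trend adjusted p = 0.220; limma-voom adjusted p = 0.0900). Leaving out knockdown library 1 gave -0.25, and leaving out knockdown library 2 gave -0.66. Under quantile normalization it was -0.09, and after removal of a trend on exon length -0.29. The ATF4 pseudogenes ATF4P2, ATF4P3 and ATF4P4 took at most 34 reads each in any library.

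Among the factors that act with or after ATF4, CEBPG and ATF5 were higher in both knockdown libraries than in either control. CEBPG (chromosome 19, 33373330 to 33382686), a C/EBP protein that forms dimers with ATF4, had 17.4 and 17.1 FPKM in controls 1 and 2, and the knockdown pair had 21.3 and 20.5 FPKM. Its 2 libraries in each group lay close together and the groups did not overlap. The log2 fold change was 0.27 ± 0.10 (limma-trend adjusted p = 0.187; limma-voom adjusted p = 0.146). CEBPG was higher under all 13 other settings, by 0.22 to 0.41, and limma-voom called it after removal of the exon length trend (adjusted p = 0.0454).

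ATF5 (chromosome 19, 49928702 to 49933935), a factor related to ATF4 in its leucine zipper and under similar translational control, was found at 9.25 and 9.66 FPKM without knockdown and 9.88 and 11.0 FPKM with it. The groups did not overlap, but the gap between them was smaller than the gap between the knockdown libraries, and the log2 fold change was 0.13 ± 0.10 (limma-trend adjusted p = 0.452). Exons of NUP62, on the opposite strand, share 21.2% of the exon bases of ATF5, and without a stated use of strand the reads there cannot be assigned with certainty. NUP62 stood at 23.0 to 25.4 FPKM.

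DDIT3, also known as CHOP (chromosome 12, 57516588 to 57521737, minus strand), is the factor that links lasting stress to cell death. It measured 24.5 and 21.6 FPKM in the control pair, against 21.9 and 29.2 FPKM after knockdown, from 473 to 781 reads. Knockdown library 1 lay between the controls and knockdown library 2 above both. The log2 fold change was 0.13 ± 0.16 (limma-trend adjusted p = 0.630), and it turned to -0.07 without knockdown library 2. Exons of MARS, on the opposite strand, share 27.2% of the exon bases of DDIT3, and MARS had 38.9 and 37.7 FPKM without knockdown against 31.1 and 35.0 FPKM with it.

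ATF3 (chromosome 1, 212565334 to 212620777), a stress-induced factor that mostly acts as a repressor, was found at 12.4 and 10.1 FPKM without knockdown and 8.26 and 9.06 FPKM with it. Control 2 and knockdown library 2 were the nearest values across the groups. The log2 fold change was -0.34 ± 0.13 (limma-trend adjusted p = 0.192; limma-voom adjusted p = 0.117).

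**Figure D2:**
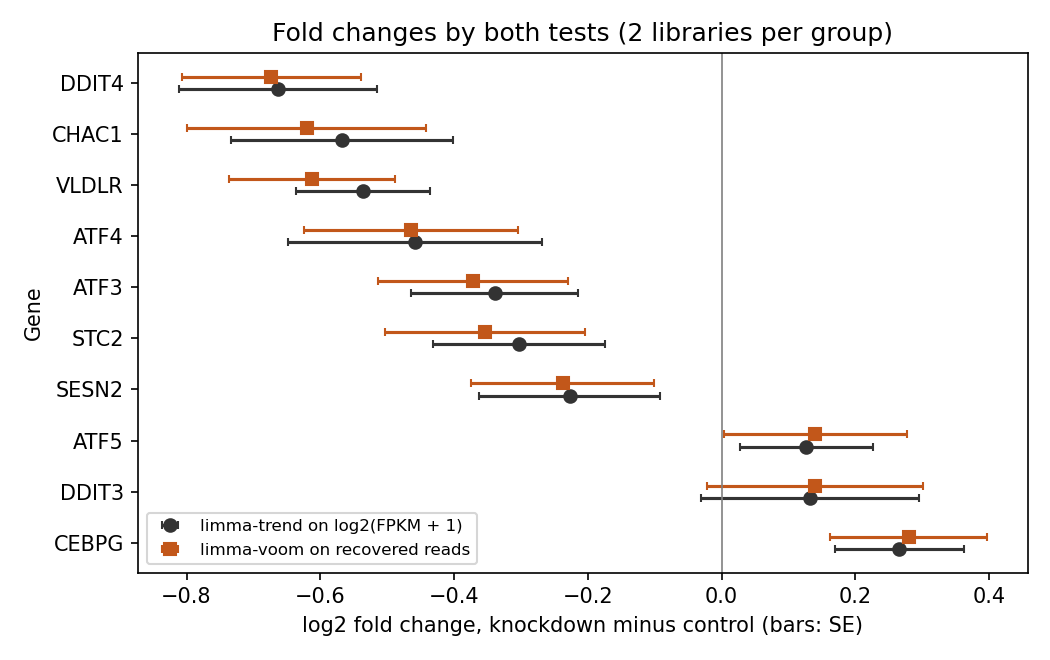
Log2 fold change of each member (knockdown minus control) by limma-trend (circles) and limma-voom (squares), with bars of 1 SE and 2 libraries per group. DDIT4 is the lowest at -0.66 and -0.67, CEBPG the highest at 0.27 and 0.28, and the bars of DDIT3 cross 0.

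Set against ATF4 in the same library, which removes the library total, DDIT3 had a larger ratio in both knockdown libraries. DDIT3 stood at 8.83% and 8.12% of the ATF4 FPKM in controls 1 and 2 and at 12.8% in each knockdown library. CEBPG was at 6.26% and 6.43% in controls and at 12.5% and 9.01% in knockdown libraries, and ATF5 at 3.33% and 3.64% against 5.77% and 4.82%. SESN2 was at 7.87% and 8.85% against 10.05% and 9.43%. These 4 ratios were higher in both knockdown libraries, but so were those of 68.8% of all genes tested, and ATF4 itself was lower. DDIT4 went the other way, at 26.9% and 31.1% in controls and 25.9% and 24.01% in knockdown libraries, and 5.7% of all genes tested were lower in both. With 2 libraries against 2, the two-sided exact permutation p was 0.333 for each of these 5 genes, the smallest the design allows. The ratios of CHAC1, ATF3, STC2 and VLDLR overlapped between the groups, at 3.91% to 5.10%, 3.82% to 4.83%, 2.24% to 2.64% and 2.46% to 3.46% of ATF4.

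**Figure D3:**
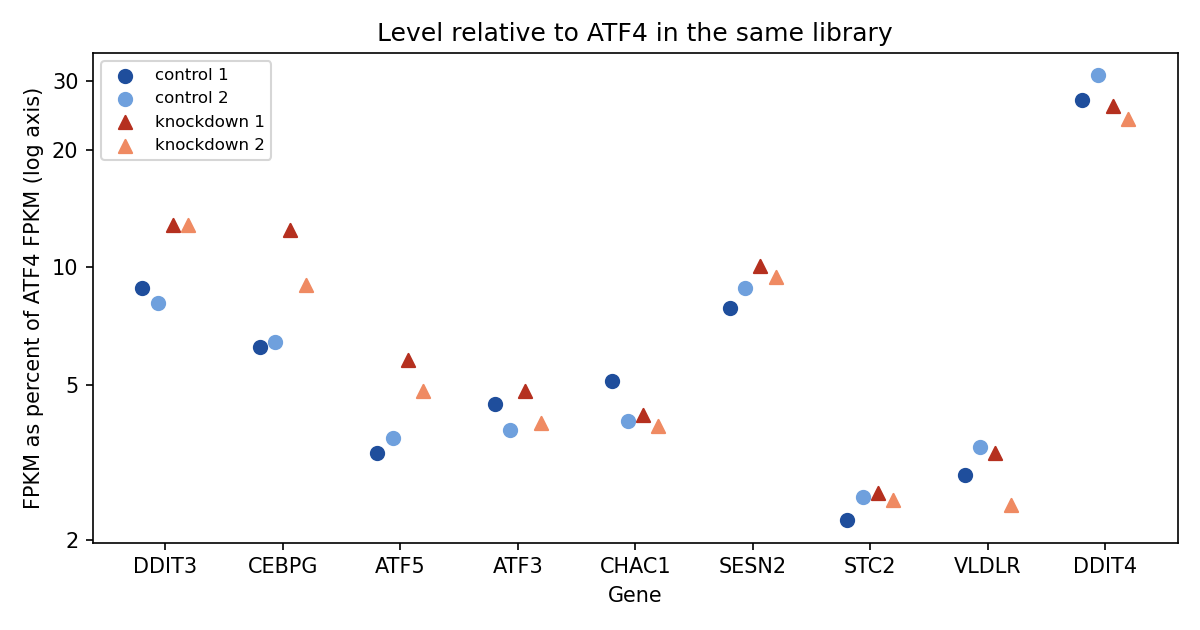
FPKM of the other 9 members as a percent of the ATF4 FPKM in the same library (log axis), controls as circles and knockdown libraries as triangles. DDIT3, CEBPG, ATF5 and SESN2 lie higher in both knockdown libraries, with DDIT3 at 12.8% in each, DDIT4 lies lower in both, and the other 4 overlap.

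DDIT4 and SESN2 both restrain the growth kinase mTORC1, DDIT4 through the TSC complex and SESN2 as a sensor of leucine. DDIT4, also called REDD1 (chromosome 10, 72273920 to 72276036), measured 74.8 and 82.5 FPKM in the control pair, against 44.4 and 54.6 FPKM after knockdown, from 1684 to 2850 reads. Both knockdown libraries were below both controls. Its log2 fold change was -0.66 ± 0.15 by limma-trend (adjusted p = 0.125), and -0.67 ± 0.13 by limma-voom (adjusted p = 0.0205). The limma-voom call ended without control 1, control 2 or knockdown library 1 (adjusted p = 0.0797, 0.112 and 0.0698), and with every gene above 0 tested (adjusted p = 0.0625), with fold changes between -0.82 and -0.52 without any 1 library. Under quantile normalization the limma-trend value was -0.37. DDIT4-AS1, which shares 41.2% of the exon bases of DDIT4 on the opposite strand, was not among the genes of the deposited table. Without a stated use of strand the reads over those bases cannot be assigned with certainty.

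SESN2 (chromosome 1, 28259527 to 28282491) had 21.9 and 23.5 FPKM in controls 1 and 2, and the knockdown pair had 17.2 and 21.5 FPKM. Knockdown library 2 lay just below control 1. The log2 fold change was -0.23 ± 0.14 (limma-trend adjusted p = 0.342), and it was -0.08 without knockdown library 1, -0.07 under quantile normalization and -0.10 with summed reads as the library total.

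VLDLR (chromosome 9, 2621834 to 2660053) is the receptor for very low density lipoprotein and for reelin, and it has been described as a target of the stress response. It was found at 8.13 and 9.18 FPKM without knockdown and 5.71 and 5.59 FPKM with it, from 983 to 1439 reads. The 2 knockdown libraries were nearly equal and both lay below both controls. Its log2 fold change was -0.54 ± 0.10 by limma-trend (adjusted p = 0.107), and -0.61 ± 0.12 by limma-voom (adjusted p = 0.0214). Like that of DDIT4, the limma-voom call ended without control 1, control 2 or knockdown library 1 (adjusted p = 0.114, 0.185 and 0.0665), with fold changes of -0.70, -0.53 and -0.63. It also ended with summed reads as the library total (adjusted p = 0.0628) and with every gene above 0 tested (adjusted p = 0.0653). VLDLR has the longest exon sequence of the members, 9339 bases against a median of 4267 bases over all genes tested, and after removal of the exon length trend it was at -0.61 by limma-trend (adjusted p = 0.0543).

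CHAC1 (chromosome 15, 40952962 to 40956519), an enzyme that breaks down glutathione, measured 14.2 and 10.7 FPKM in the control pair, against 7.14 and 8.90 FPKM after knockdown, from 271 to 485 reads. The controls differed from each other by 0.38 on the log2 scale, so that control 2 was nearer to knockdown library 2 than to control 1. The log2 fold change was -0.57 ± 0.17 (limma-trend adjusted p = 0.153), and by limma-voom -0.62 ± 0.18 (adjusted p = 0.0563). CHAC1 passed the limma-trend threshold without control 2 (fold change -0.76, adjusted p = 0.0374) and was at -0.38 without control 1.

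STC2 (chromosome 5, 173314713 to 173329503, minus strand), a secreted glycoprotein hormone induced by endoplasmic reticulum stress, was the least abundant member. It had 6.23 and 6.82 FPKM in controls 1 and 2, and the knockdown pair had 4.51 and 5.74 FPKM. The groups did not overlap, though knockdown library 2 came close to control 1, and the log2 fold change was -0.30 ± 0.13 (limma-trend adjusted p = 0.227; limma-voom adjusted p = 0.148). It was -0.16 without knockdown library 1.

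ATF4 and its partners are known for binding composite sites that join part of a C/EBP site to part of an ATF site, written here as TGATGNAAN with N for any base. RefSeq promoter windows (GRCh38.p14, 250 bases before to 50 after a start) matched all 10 genes, with 16 windows in all because several genes have more than 1 start. On either strand, 3 of the 16 windows held the motif, in ATF3, CHAC1 and CEBPG, against 3.61% of all 35116 windows. The matches are shown with 10 bases before each, in the direction of the gene and with the motif in capitals, because their genes include one with a higher mean and others with lower means. In CHAC1 the motif reads on the other strand. The ATF3 stretch is chr1:212565206-212565234, plus strand, with the motif starting 191 bases before the RefSeq start of its window. The CHAC1 stretch is chr15:40953251-40953279, plus strand, with the motif starting 210 bases before the RefSeq start and inside the GENCODE span of the gene. The CEBPG stretch is chr19:33374061-33374089, plus strand, with the motif starting 42 bases before the second RefSeq start. It too lies inside the GENCODE span of its gene.
ATF3: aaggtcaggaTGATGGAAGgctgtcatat
CHAC1: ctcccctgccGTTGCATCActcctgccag
CEBPG: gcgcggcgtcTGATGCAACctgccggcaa

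CEBPG was higher and ATF3 and CHAC1 were lower in both knockdown libraries, none of them past either test in its main setting. A match is a run of letters and not a measured binding site.

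DDIT4 and VLDLR were the members called lower on recovered reads, and the bases upstream of their starts are shown for that reason. Neither window held TGATGNAAN, and no member window held the palindromic site TGACGTCA, which 1.85% of all windows held. The capitals mark ACGTG, a form of the core of sites bound by hypoxia-inducible factors, searched on both strands, which overlaps the E-box CACGTG. The other form, GCGTG, was not searched for or marked, and it stands in each stretch below. ACGTG was found in 21.4% of all windows and in those of DDIT4 and ATF4 among the members. The DDIT4 stretch is chr10:72273674-72273919 and the VLDLR stretch chr9:2621537-2621786, both on the plus strand.
DDIT4: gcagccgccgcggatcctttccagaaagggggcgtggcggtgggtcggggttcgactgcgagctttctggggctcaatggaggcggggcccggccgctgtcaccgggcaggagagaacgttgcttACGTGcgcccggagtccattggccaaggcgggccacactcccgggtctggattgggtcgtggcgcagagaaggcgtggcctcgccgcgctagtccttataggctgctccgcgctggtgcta
VLDLR: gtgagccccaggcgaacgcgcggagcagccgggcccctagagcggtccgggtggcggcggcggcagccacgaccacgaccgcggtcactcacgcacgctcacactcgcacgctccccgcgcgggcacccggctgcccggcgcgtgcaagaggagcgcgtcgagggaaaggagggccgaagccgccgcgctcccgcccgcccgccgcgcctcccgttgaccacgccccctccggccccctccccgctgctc

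The DDIT4 stretch held ACGTG once, 125 bases before the RefSeq start of its window, and the VLDLR stretch did not hold ACGTG. The bases of the VLDLR stretch were 78.8% G or C, against 68.3% in that of DDIT4.

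**Figure D4:**
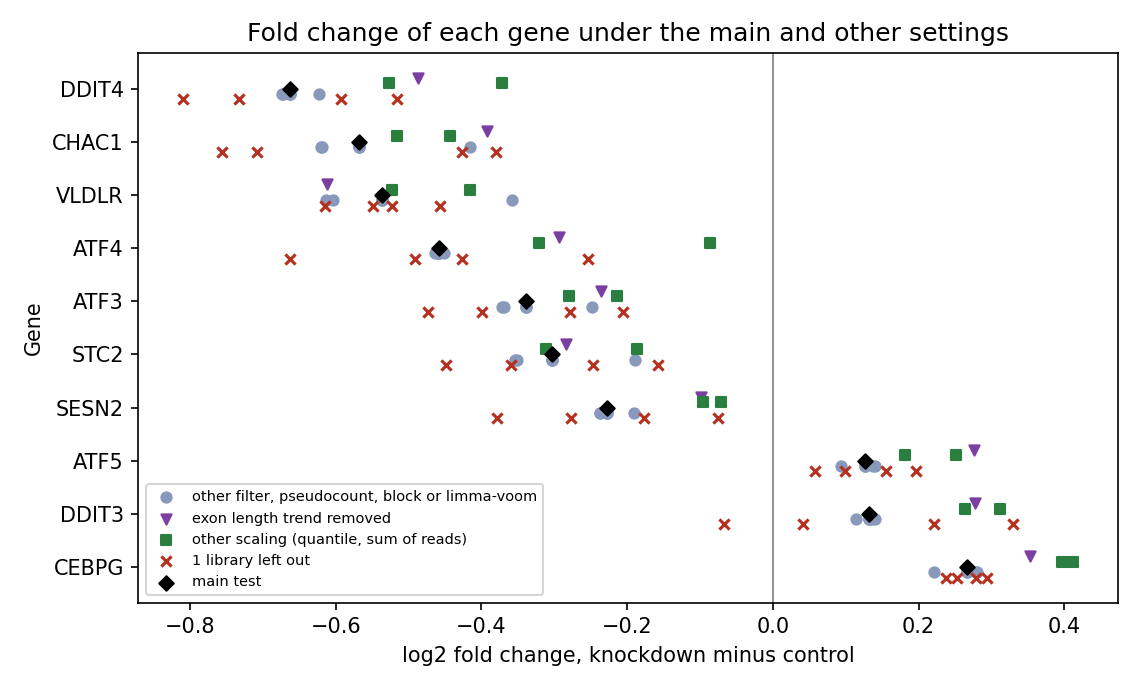
Log2 fold change of each member under the main test (diamonds) and 13 other settings. Values of 9 genes keep 1 side of 0, DDIT3 crosses it at -0.07 without knockdown library 2, and ATF4 spans -0.66 to -0.09.

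In the controls the order of levels per exon length was ATF4, DDIT4, DDIT3, SESN2, CEBPG, CHAC1, ATF3, ATF5, VLDLR and STC2, from a mean of 272 to a mean of 6.53 FPKM. Of the neighbours in this order, DDIT3 and SESN2 overlapped in the controls, as did CHAC1 and ATF3. The knockdown libraries differed from each other in most members: 8 of the 10 were higher in the second than in the first, by up to 0.41 in ATF4, while CEBPG and VLDLR differed by -0.06 and -0.03. The members' median against the control mean was -0.42 in the first and -0.21 in the second, where all genes tested had -0.05 and -0.01. On limma-voom without knockdown library 2, 7 of the 10 members passed, all but ATF3, ATF5 and DDIT3, and 6 of these 7 were lower with CEBPG higher, while 29.4% of all genes tested passed. Without knockdown library 1 or without control 1 the limma-voom count was 0, where 0.774% and 1.03% of all genes passed. Without control 2 it was 1, CHAC1, where 3.77% of all genes passed.

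DDIT4 had the largest fold change of the members, and the 3 genes whose values over the 4 libraries were most like its own were SLC25A20, ANXA1 and CKAP4. The measure was the Euclidean distance of centred log2(FPKM + 1), which was 0.029, 0.034 and 0.049. SLC25A20, the mitochondrial carnitine carrier, was found at 11.3 and 12.5 FPKM without knockdown and 6.43 and 8.23 FPKM with it.

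Upstream of ATF4, a list of 18 genes held the eIF2 kinases, GCN1, IMPACT, DELE1, OMA1, eIF2 subunits, its exchange factor and its phosphatase guides. Of these 18 genes 17 were tested. Limma-voom called 1 lower and 1 higher, against 5.8% and 1.94% of all genes tested. EIF2B2, a subunit of the exchange factor, went down from 7.67 ± 0.52 to 5.12 ± 0.50 FPKM (SD, n = 2 each; limma-voom adjusted p = 0.0324). EIF2AK2, the kinase PKR that senses double-stranded RNA, rose from 2.03 ± 0.28 to 3.23 ± 0.63 FPKM (by limma-voom, adjusted p = 0.0412). The list median was -0.02, and that of all genes tested -0.03. Among 24 tested basic leucine zipper partners 2 fell by limma-voom and 0 rose. The 2 were BATF3, from 8.27 to 5.17 FPKM, and MAFK, a small MAF protein, from 28.5 to 18.3 FPKM. By that test 7 of the 24 had an unadjusted p under 0.05, as did 3738 of all 13172 genes tested. The list median was -0.08.

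Among the targets of ATF4 outside the 10 members, genes of amino acid supply had a median of -0.34 over 15 tested, near that of the members. Lower means were found for 11 of the 15 (54.3% of all genes), and limma-voom called 4 of them lower (5.8% of all genes, which is also the background for the lists that follow, with 1.94% called higher). PYCR1, an enzyme of proline synthesis, fell from 32.3 ± 0.41 to 18.4 ± 5.09 FPKM, SHMT2, the mitochondrial serine hydroxymethyltransferase, from 77.3 ± 4.24 to 50.6 ± 10.2 FPKM, and PSPH, the last enzyme of serine synthesis, from 9.77 ± 0.82 to 6.35 ± 0.42 FPKM (by limma-voom, adjusted p = 0.0207, 0.0339 and 0.0328). PSAT1, also of serine synthesis, was the other. The list median was -0.13 under quantile normalization. In a list of 19 genes, cytosolic aminoacyl-tRNA synthetases and the tRNA exporter XPOT, 2 fell by limma-voom, NARS and GARS, and NARS was called by limma-trend as well (log2 fold change -1.09 ± 0.10, adjusted p = 0.0398). The median of that list was -0.15, and 0.03 under quantile normalization.

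Of 20 other stress effectors tested, limma-voom called 2 lower and 1 higher, with a list median of -0.13. GADD45B, a stress-induced regulator of MAP kinase signalling, fell from 5.88 ± 0.31 to 2.67 ± 0.40 FPKM, and EIF4EBP1, the repressor of cap-dependent translation that mTORC1 inactivates, from 52.3 ± 2.87 to 28.4 ± 5.75 FPKM (by limma-voom, adjusted p = 0.0134 and 0.0122). FAM129A, now named NIBAN1, rose from 2.13 ± 0.09 to 3.85 ± 0.15 FPKM (by limma-voom, adjusted p = 0.0102).

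Around mTORC1, the kinase complex that DDIT4 and SESN2 restrain, 23 genes were tested, with a median of -0.05. Limma-voom called 2 lower and 1 higher. MLST8, a core subunit of the complex, fell from 22.7 ± 1.01 to 15.05 ± 1.66 FPKM, and RHEB, the GTPase that activates it, from 31.1 ± 1.29 to 21.3 ± 2.06 FPKM (by limma-voom, adjusted p = 0.0268 and 0.0303). SESN3, a relative of SESN2, rose from 4.17 ± 0.72 to 6.33 ± 0.94 FPKM (by limma-voom, adjusted p = 0.0410), in the opposite direction to the lower mean of SESN2. SESN1, the other relative in the list, had a log2 fold change of -0.34 by limma-trend and was not called by limma-voom.

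Of 12 genes of glutathione metabolism, in which CHAC1 acts, limma-voom called 2 lower and 0 higher. By that test 4 had an unadjusted p under 0.05, as did 3738 of all 13172 genes tested. GPX1 and GPX4, glutathione peroxidases, fell from 148 ± 10.4 to 91.8 ± 24.5 FPKM and from 220 ± 18.2 to 137 ± 39.1 FPKM (by limma-voom, adjusted p = 0.0310 and 0.0383). The median of the list was -0.13, and -0.01 with summed reads as the library total. Of 6 tested relatives and partners of VLDLR and STC2, 5 had lower means, as did 54.3% of all genes tested. LRPAP1, the chaperone of the lipoprotein receptor family, fell from 10.7 ± 0.07 to 7.23 ± 1.15 FPKM (by limma-voom, adjusted p = 0.0310).

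Of these 19 related genes called by limma-voom, limma-trend called NARS alone. The 19 were picked by limma-voom on these same libraries. Fewer of them were called without control 1, control 2 or knockdown library 1, but not without knockdown library 2. Limma-voom called 4 of them with every gene above 0 tested, where it called 123 of 28274 genes. It called 8 under quantile normalization and 7 with summed reads as the library total, where 513 and 461 of 13172 genes were called.

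**Figure D5:**
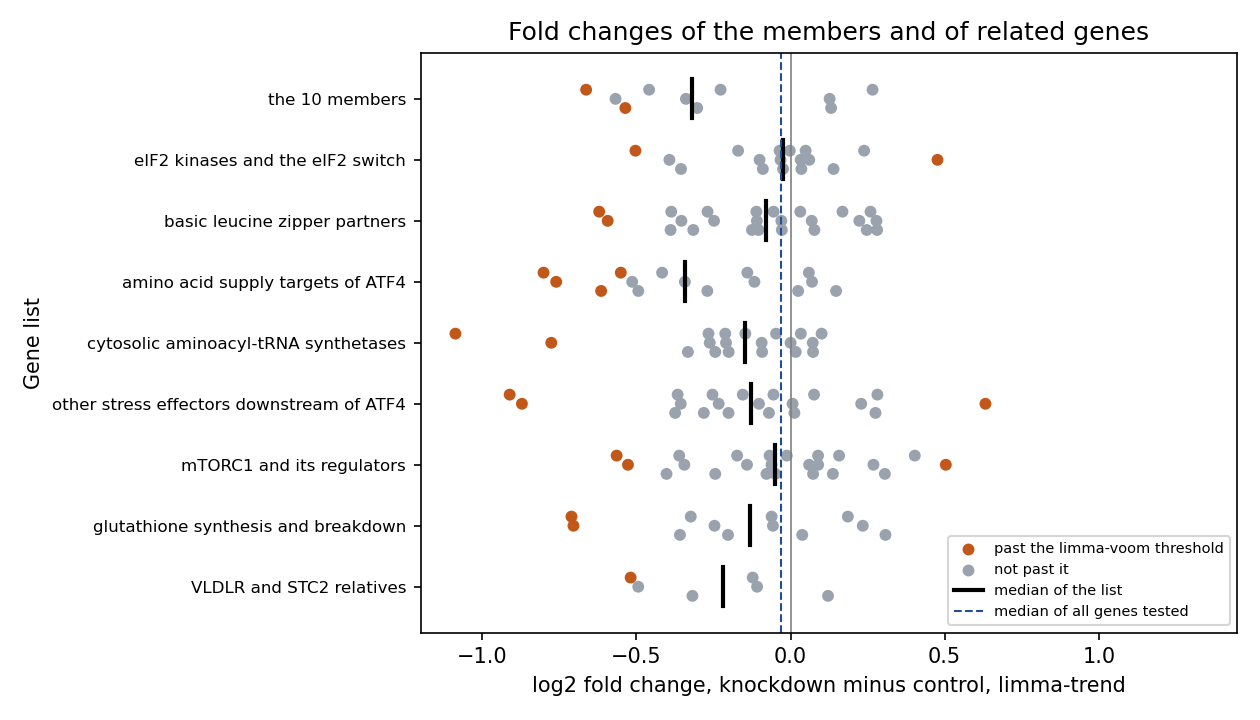
Log2 fold change by limma-trend of each tested gene in the 10 members and in 8 lists of related genes. Orange points passed limma-voom, black bars are list medians and the dashed line is the median of all genes tested (-0.03). The bars of the members (-0.32) and of the amino acid supply genes (-0.34) lie farthest to the left. That order depended on the scaling. Under quantile normalization, which is not drawn, the VLDLR and STC2 relatives had the lowest median (-0.21), below the members (-0.18) and the amino acid supply genes (-0.13).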

How the data were processed

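Messenger RNA was measured in 4 libraries. The submitters' processing notes name HISAT2 2.0.5 as aligner and hg38 as build. Which counter, annotation and strand setting were used is not stated there. The deposited table names no unit. Its values are FPKM as the authors scaled them: each value times the merged exon length in GENCODE 29 (all 28274 identifiers matched) came out as a whole number of steps, with 1 step size per library, in 100% of genes (tolerance 0.001). Dividing by the step gave whole reads, and the authors' totals were 16648943 to 20480491.

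Limma-trend (limma 3.58.1, R 4.3.3) was the main test, on log2(FPKM + 1), two-sided, with a pseudocount of 1, a mean of at least 1 FPKM, the group as the single term and Benjamini-Hochberg adjustment over all 13172 genes tested, at 0.05. This scale understates changes of low genes. Limma-voom was run on those whole reads, with library sizes set to the authors' totals. As a self-test, both were run on simulated reads with known changes, drawn for each gene apart and without shifts shared within a library. That run does not bear on the calls given here. Named genes are FYB1, the 10 members, the called genes of 8 related lists (at most 4 per list and test) and 3 nearest neighbours of the member that differed most. Members and lists were chosen with earlier results of these data known. Alternatives covered filters, pseudocounts, scalings, an exon length trend, a replicate block and leaving out each library. Limma-voom under these settings and a crossed block were chosen after seeing the data.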

Additional observations from a re-analysis of the deposited data

How the results depend on the processing

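Directions of the 10 members held under the 13 settings other than the main one except that of DDIT3, which was -0.067 to 0.33 with 1 library left out and negative without knockdown library 2. The limma-trend count over all genes (27) was 0 with no filter (3938 at an unadjusted p under 0.05), 181 with a mean of at least 5 FPKM, 45 under quantile normalization, 76 with summed reads as the library total, 111 after removal of the exon length trend, and 1019 by limma-voom. With 1 library left out it was 0 to 406, and 0 without either knockdown library (2205 and 4841 unadjusted). The member count (0, with 5 unadjusted) was 2 by limma-voom and 0 to 1 with 1 library left out. The member median (-0.32) was -0.18 under quantile normalization, -0.20 with summed reads, and -0.42 to -0.21 with 1 library left out. FYB1 was at -1.65 with no filter (limma-trend adjusted p = 0.264) and at -1.84 to -1.46 with 1 library left out. Where a group kept 1 library, that library was assumed to vary like the other group.

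Under limma-voom the member count (2) moved with 1 library left out, and it was 1 with summed reads. With no filter it was 0, where 7 members and 4623 of 28274 genes had an unadjusted p under 0.05. It stayed within 1.5 times under the other added settings.

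Nothing in the labels pairs equal numbers. A replicate block on them gave 781 genes and 2 members, CHAC1 and VLDLR (limma-trend adjusted p = 0.0392 and 0.0297). Deviations of same-numbered libraries correlated at -0.21 across genes, and a crossed block, added after seeing the data, gave 1910 genes and 3 members.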
